A study of Mus musculus with 15 samples.

Results

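The genes described here are the MAP kinase feedback inhibitors Dusp1, Dusp2, Dusp4, Dusp5, Dusp6, Dusp16, Spry1, Spry2 and Spred1, 9 genes chosen by name out of 13342 in the deposited gene table. A total of 8 of the 9 had counts and entered the test, among 12798 genes tested. Spry1 was on the authors' list of genes with under 10 counts and has no value here. Their mRNA was measured by RNA sequencing in RAW264.7, an established line of mouse macrophages that carries Abelson murine leukemia virus, at passages 6 to 14. The 5 groups of 3 libraries were untreated control cells, cells with nonporous Stober silica of 50 nm (Stober50) or 500 nm (Stober500), and cells with mesoporous silica of 500 nm that was bare (MSN500) or carried polyethylene glycol (MSN-PEG500). The dosage label refers to a fraction of the LC50 and gives 13.1 µg/ml for Stober50, 16.8 µg/ml for Stober500, 111.8 µg/ml for MSN500 and 84 µg/ml for MSN-PEG500, and whether that value is the amount added or the LC50 is not said. Exposure is 24 h in the treatment protocol and 4 h in the extraction protocol. Particle type and labelled dose changed together in every comparison, so their parts cannot be told apart.

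MAP kinases (ERK, p38 and JNK) are switched on by phosphorylation of a threonine and a tyrosine, and the dual specificity phosphatases encoded by Dusp genes remove both. Many Dusp genes are themselves transcribed in response to MAP kinase activity, which closes a negative feedback loop. In macrophages Dusp1 limits the output of cytokines after Toll-like receptor stimulation, which is not said here of the other members. Sprouty proteins (Spry1, Spry2) block the path from receptor tyrosine kinases to Ras and ERK, and Spred1 brings neurofibromin to the membrane, where it turns Ras off. The mRNA levels given below do not measure the activity of a phosphatase or a kinase.

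The sequence upstream of a member was available in the RefSeq promoter table of GRCm38.p6 for 8 of the 9 genes, Spry1 included and Dusp4 not. The bases before the RefSeq start are shown for Dusp2 and Dusp16, which were called higher in MSN500 against control. Dusp16 was also called in MSN-PEG500, and Dusp2 was not. Dusp1 and Dusp5 are shown beside them, as they did not pass the test in any comparison of the fit to all libraries. Not passing does not show that a gene was unchanged. They run 5′ to 3′ on the strand of the gene and end where the authors' gene begins or at the RefSeq start, whichever comes first. Dusp2 is at chr2:127335909-127336158 (plus strand), Dusp16 at chr6:134792629-134792878 (minus strand), Dusp1 at chr17:26508520-26508722 (minus strand) and Dusp5 at chr19:53528895-53529108 (plus strand). Capitals mark matches to the motifs named in the next paragraph.
Dusp2: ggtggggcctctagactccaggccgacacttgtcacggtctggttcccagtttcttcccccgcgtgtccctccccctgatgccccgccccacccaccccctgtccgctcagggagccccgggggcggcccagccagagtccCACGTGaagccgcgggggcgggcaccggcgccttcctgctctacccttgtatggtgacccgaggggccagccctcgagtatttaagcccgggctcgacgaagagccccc
Dusp16: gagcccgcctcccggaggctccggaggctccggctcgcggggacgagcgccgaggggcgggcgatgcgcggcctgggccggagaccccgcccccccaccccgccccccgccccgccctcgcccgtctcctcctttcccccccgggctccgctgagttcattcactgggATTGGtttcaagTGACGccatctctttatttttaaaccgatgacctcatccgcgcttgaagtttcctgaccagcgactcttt
Dusp1: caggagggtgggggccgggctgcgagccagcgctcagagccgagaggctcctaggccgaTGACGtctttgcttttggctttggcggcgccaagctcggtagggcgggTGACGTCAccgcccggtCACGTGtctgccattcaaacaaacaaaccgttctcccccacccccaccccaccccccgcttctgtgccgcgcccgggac
Dusp5: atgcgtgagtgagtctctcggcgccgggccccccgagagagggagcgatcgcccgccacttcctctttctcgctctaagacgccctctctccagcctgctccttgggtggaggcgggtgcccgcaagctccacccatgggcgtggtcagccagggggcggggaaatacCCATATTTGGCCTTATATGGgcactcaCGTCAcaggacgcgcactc

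On GRCm38 the authors' annotation places Dusp1 (ENSMUSG00000024190) at chr17:26505590-26508519 on the minus strand, Dusp2 (ENSMUSG00000027368) at chr2:127336159-127338376 on the plus strand and Dusp5 (ENSMUSG00000034765) at chr19:53529109-53542431 on the plus strand. It places Dusp6 (ENSMUSG00000019960) at chr10:99263231-99267488 on the plus strand, Dusp16 (ENSMUSG00000030203) at chr6:134715473-134792625 on the minus strand, Spry2 (ENSMUSG00000022114) at chr14:105891949-105896819 on the minus strand and Spred1 (ENSMUSG00000027351) at chr2:117121374-117182279 on the plus strand.

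A total of 9 motifs were searched on both strands of the 250 bases before the RefSeq start. Dusp1 held the full cAMP response element TGACGTCA, the binding sequence of CREB, 143 to 136 bases before its start, and 1.55% of the 32851 promoters in the table held one. The shorter element TGACG was in the windows of Dusp1, Dusp5 and Dusp16, and in 17.8% of all promoters (the full element contains it on both strands). The E-box CACGTG was in Dusp1 and Dusp2 and in 6.02% of all promoters. Dusp5 held 2 abutting CArG boxes, the element bound by serum response factor, 82 to 63 bases before its start, and 1.47% of all promoters held at least 1. The inverted CCAAT box was in Dusp6, Dusp16 and Spry1, and CCAAT on either strand was in 33.8% of all promoters. None of the 8 windows matched the AP-1 site TGANTCA (6.75% of all promoters), the ETS core CCGGAA (12%), the TATA box TATAAA (12.4%) or the kappaB site (7.25%). These are matches of letters within a short window, and no motif of the 9 was in both Dusp2 and Dusp16.

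Library totals ran from 17683003 to 27253289 counts, scaling (TMM) factors from 0.974 to 1.02 and the mitochondrial share of counts from 1.33% to 1.70%. All 10 macrophage markers on the list (Csf1r, Adgre1, Cd68 and others) were measured, with a summed level of 15397 to 18909 CPM (counts scaled to the TMM effective library size) per library. Of other cell types, 1 of 6 fibroblast markers (Pdgfrb, at most 1.82 CPM), 1 of 6 granulocyte and erythroid markers (S100a8, at most 1.40 CPM) and 2 of 6 lymphocyte markers (Ighm and Lck, at most 10.2 and 7.55 CPM) passed the filter on low counts, and 0 of 4 epithelial and 0 of 3 endothelial markers did. The sum of the macrophage markers was 17140 to 17715 CPM in control, lower in both mesoporous groups (16284 to 16850 CPM in MSN500 and 15397 to 16528 CPM in MSN-PEG500) and higher in both nonporous groups (17995 to 18121 CPM in Stober50 and 18290 to 18909 CPM in Stober500), with no overlap with control. Lyz2, at 9057 to 11488 CPM per library, was the largest part of that sum, which does not show how each marker moved. Mean Csf1r was 3476 CPM in control, 3281 CPM in Stober50 and 3393 CPM in Stober500. It was 2503 CPM in MSN500 and 2626 CPM in MSN-PEG500. The part of these differences in the results was not tested. MSN500 replicate 1 and MSN-PEG500 replicate 3 stood apart as low libraries for most members, and the calls that depend on them are given with and without them. In a bulk sample, more cells expressing a gene and more mRNA per cell cannot be told apart.

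Level per length was read from the deposited FPKM values (counts scaled to exonic length and library size), which allow members to be compared with each other. In control cells the order ran from Dusp1 at 126 ± 4.93 FPKM (mean ± SD, n = 3) through Spred1 at 54.5 ± 1.74 FPKM, Dusp4 at 37.4 ± 2.66 FPKM and Dusp6 at 18.3 ± 0.653 FPKM. Below them came Dusp5 at 11.9 ± 0.749 FPKM, Dusp2 at 7.07 ± 0.569 FPKM, Dusp16 at 5.78 ± 0.231 FPKM and Spry2 at 3.94 ± 0.371 FPKM. No 2 neighbours in that order overlapped between their control libraries. The order was the same in both Stober groups. In MSN500 the level of Dusp4 was 58.8 ± 6.29 FPKM and that of Spred1 55.2 ± 2.10 FPKM, and in MSN-PEG500 they were 63.0 ± 6.25 FPKM and 54.4 ± 3.70 FPKM, so that the mean of Dusp4 was above that of Spred1 with overlapping libraries. Dusp5 and Dusp2 also overlapped in both mesoporous groups, and Dusp2 and Dusp16 overlapped in MSN-PEG500.

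**Figure D1:**
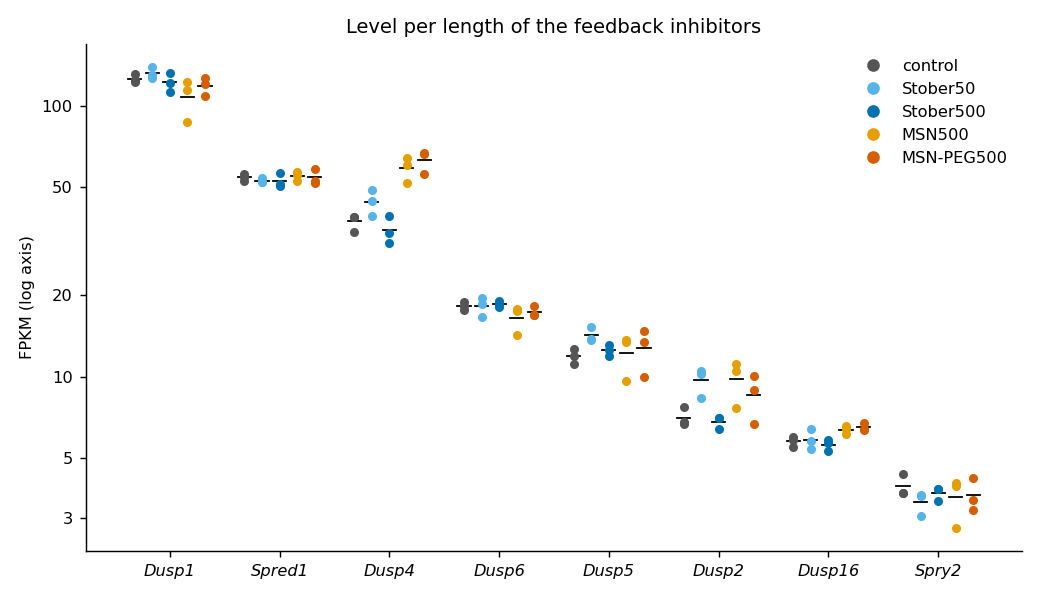
Deposited FPKM (log axis) of the 8 measured members, 1 point per library with the group mean as a black line and groups in colour. Dusp1 is highest, at 126 FPKM in control, Spry2 lowest at 3.94 FPKM, and Dusp4 moves from 37.4 FPKM in control to 63.0 FPKM in MSN-PEG500.

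Dusp4 encodes an inducible nuclear phosphatase of ERK and JNK (MKP-2) and showed the largest change of the 8 members. Its level was 104, 92.6 and 104 CPM in the 3 control libraries, 106, 121 and 133 in Stober50, and 84.0, 91.3 and 106 in Stober500. It was 146, 170 and 181 CPM in MSN500 and 187, 186 and 155 CPM in MSN-PEG500. All 6 mesoporous libraries lay above all 9 others. Against control, Dusp4 rose 1.65-fold in MSN500 (log2 change 0.72 ± 0.12 SE, edgeR quasi-likelihood F-test, Benjamini-Hochberg adjusted p = 3.97e-04) and 1.75-fold in MSN-PEG500 (0.81 ± 0.12, adjusted p = 2.20e-04). This test stands behind every adjusted p below unless another is named. The gene spans chr8:34807297-34819894 on the plus strand of GRCm38 (ENSMUSG00000031530), and no other gene of the authors' table overlaps it or any other member.

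Dusp2 encodes an inducible nuclear phosphatase (PAC-1) of immune cells. It was at 15.1, 13.2 and 13.3 CPM in control, 16.6, 20.9 and 20.3 CPM in Stober50, and 13.9, 12.6 and 13.9 CPM in Stober500. It was at 15.8, 22.9 and 21.6 CPM in MSN500 and at 18.2, 20.7 and 13.6 CPM in MSN-PEG500. The MSN500 and the Stober50 libraries lay above all control libraries, while MSN-PEG500 overlapped control through replicate 3. Against control Dusp2 rose 1.45-fold in MSN500 (log2 change 0.54 ± 0.15, adjusted p = 0.0112). It did not pass in Stober50 (0.47 ± 0.15, adjusted p = 0.0782) or MSN-PEG500 (0.33 ± 0.16, adjusted p = 0.133). Without MSN-PEG500 replicate 3 the latter difference was 0.48 (adjusted p = 0.0162), and in a fit of the 2 groups alone with all libraries it was 0.33 (adjusted p = 0.0393). The Stober50 difference passed in limma-voom (adjusted p = 0.0319), in a fit of the 2 groups alone (0.00149) and without Stober50 replicate 1 (log2 change 0.58, adjusted p = 0.0374).

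Dusp1 encodes MKP-1, the nuclear phosphatase that acts on p38, JNK and ERK and restrains inflammatory cytokines in mouse macrophages. It was at 322, 329 and 347 CPM in control and at 242, 339 and 316 CPM in MSN500. MSN500 replicate 1 was the lowest of all 15, replicate 2 lay within the control range and replicate 3 just below it. The log2 difference in MSN500 was -0.15 (95% interval -0.39 to 0.09, adjusted p = 0.292), and -0.02 without replicate 1 (adjusted p = 0.817). In the other particle groups the lowest and highest libraries were 338 and 372 CPM in Stober50, 299 and 350.0 CPM in Stober500, and 297 and 349 CPM in MSN-PEG500. All 4 particle groups overlapped control. The 95% intervals of Dusp1 against control reached from -0.39 in MSN500 to 0.32 in Stober50 on the log2 scale.

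Dusp5 encodes a nuclear phosphatase specific for ERK. It was at 27.03, 29.0 and 30.6 CPM in control, 33.4, 33.9 and 37.4 CPM in Stober50, and 29.0, 30.5 and 31.9 CPM in Stober500. It was at 24.4, 34.6 and 34.2 CPM in MSN500 and at 33.9, 37.3 and 25.1 CPM in MSN-PEG500. All Stober50 libraries lay above control, and each mesoporous group held 1 library below control with the other 2 above it. No difference passed the test (Stober50 0.28 ± 0.14, adjusted p = 0.270, MSN500 0.11 ± 0.14, adjusted p = 0.556, MSN-PEG500 0.15 ± 0.15, adjusted p = 0.462). The Stober50 difference passed in a fit of the 2 groups alone (adjusted p = 0.00515).

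Dusp6 encodes the cytoplasmic phosphatase specific for ERK (MKP-3), a widely used readout of ERK activity. Its 15 libraries ran from 40.9 CPM in MSN500 replicate 1 to 54.2 CPM in Stober50 replicate 3, with a control range of 48.5 to 51.8 CPM. Its largest difference from control was a log2 change of -0.08 in MSN500 (95% interval -0.21 to 0.06, adjusted p = 0.381), which turned to 0.02 without MSN500 replicate 1 (adjusted p = 0.869). All 4 particle groups overlapped control. The 95% intervals of Dusp6 against control lay between -0.21 and 0.16 on the log2 scale.

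Dusp16 encodes the phosphatase MKP-7, which acts on JNK and p38. It was at 43.8, 45.0 and 41.3 CPM in control, 41.0, 43.9 and 48.5 CPM in Stober50, and 42.8, 43.6 and 40.2 CPM in Stober500. It was at 48.2, 50.5 and 51.8 CPM in MSN500 and at 49.7, 50.0 and 52.6 CPM in MSN-PEG500. The 6 mesoporous libraries lay above all control and Stober500 libraries, and Stober50 replicate 3 reached into the MSN500 range. Dusp16 rose against control in MSN500 (log2 change 0.21 ± 0.06, 1.16-fold, adjusted p = 0.00362) and in MSN-PEG500 (0.23 ± 0.06, 1.17-fold, adjusted p = 0.00268). The SD of Dusp16 over the 3 libraries was 1.86 CPM in control, 1.79 CPM in Stober500, 1.81 CPM in MSN500 and 1.59 CPM in MSN-PEG500, and it was 3.80 CPM in Stober50.

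Spry2 had the lowest level of the measured members, between 5.93 and 9.01 CPM over all libraries. Its control range of 7.58 to 8.91 CPM overlapped that of all 4 particle groups, and its widest difference from control was -0.18 in Stober50 (95% interval -0.43 to 0.07, adjusted p = 0.411). Spred1 was at 372, 351 and 363 CPM in control, 339, 343 and 379 CPM in Stober500, 369, 397 and 388 CPM in MSN500, and 358, 366 and 404 CPM in MSN-PEG500. Against control its log2 difference was 0.09 ± 0.05 in MSN500 (adjusted p = 0.138) and 0.05 ± 0.05 in MSN-PEG500 (adjusted p = 0.403).

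**Figure D2:**
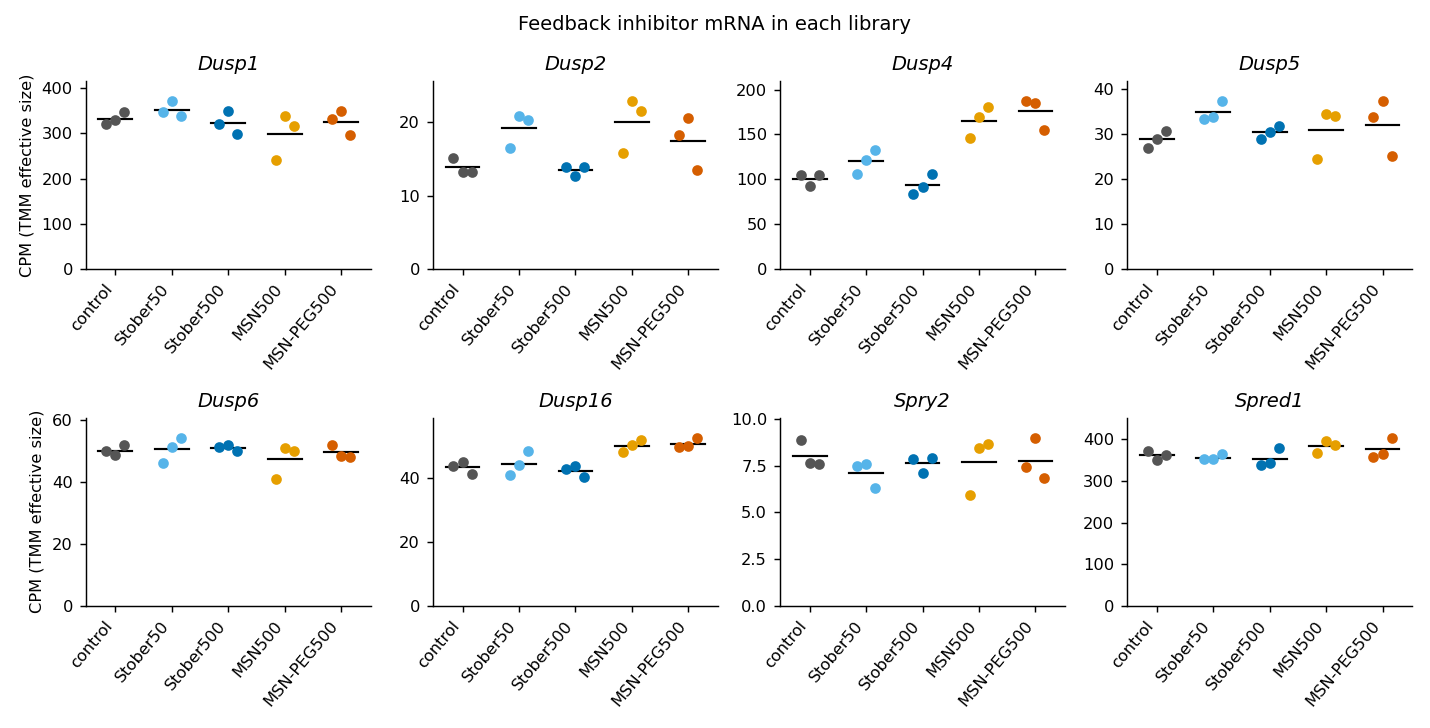
CPM of each measured member in each of the 15 libraries, with the group mean as a black line and the vertical axis starting at 0. The 6 mesoporous libraries of Dusp4 sit between 146 and 187 CPM, above the 9 others, while MSN500 replicate 1 is the lowest point of Dusp1 at 242 CPM.

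The first question was whether each particle changed the members relative to untreated cells. In MSN500 against control 3 of 8 members rose (Dusp4, Dusp2 and Dusp16) and none fell, in a comparison in which 42.9% of all genes tested were called and 21.6% were called higher. In MSN-PEG500 against control 2 of 8 rose (Dusp4 and Dusp16), against 34.4% of all genes called and 17.5% called higher. Read against those shares, the counts do not set the 8 members apart from other genes. The median log2 difference over the 8 members was 0.10 in both comparisons, beside -0.0040 and -0.011 over all genes tested. Both comparisons use the same 3 control libraries.

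Neither nonporous particle changed a member past the threshold. In Stober50 against control edgeR called 0 of 8 members, with 1 (Dusp2) at an unadjusted p under 0.05, DESeq2 called 0 and limma-voom 1, while 7.57% of all genes were called. In Stober500 against control edgeR, DESeq2 and limma-voom each called 0 of 8, with 0 at an unadjusted p under 0.05 in edgeR and no adjusted p from DESeq2 for 5 of them, and 0.00781% of all genes were called. The widest difference in Stober500 was that of Dusp4, at -0.10 (95% interval -0.37 to 0.16). Taking all 5 groups together, Dusp4 (adjusted p = 1.03e-04), Dusp16 (3.69e-04) and Dusp2 (0.0125) differed among groups, 3 of 8 members beside 49.7% of all genes.

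**Figure D3:**
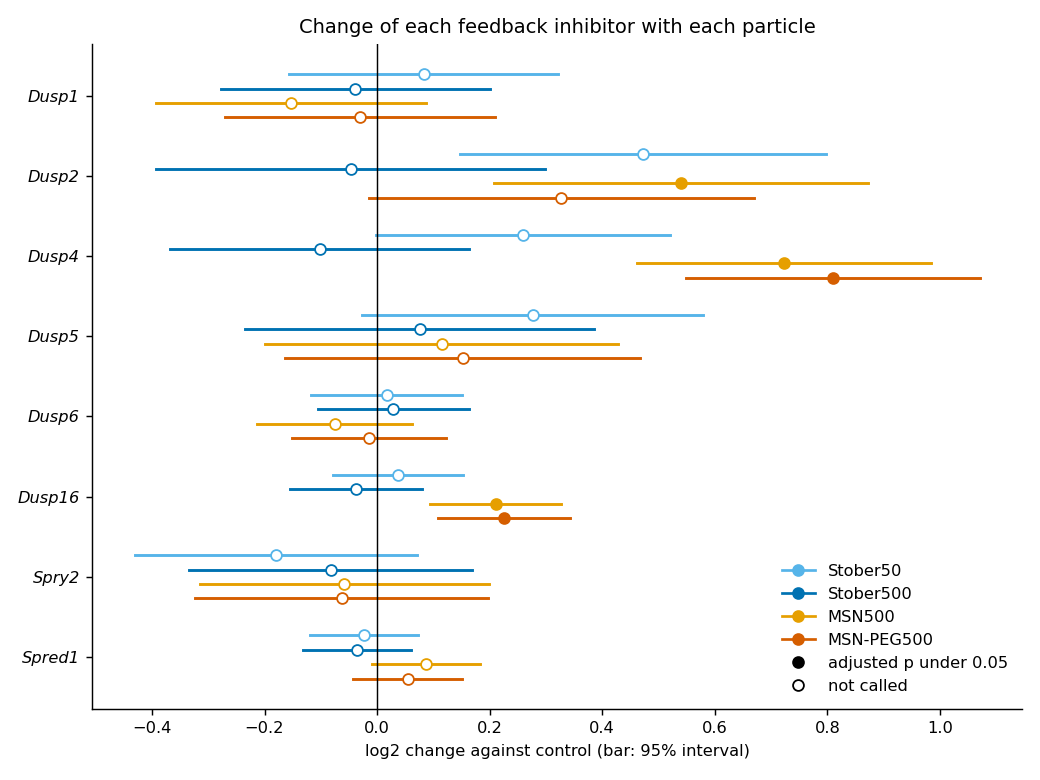
Log2 change of each member against control for the 4 particles, with 95% intervals as bars, filled points where the adjusted p was under 0.05 and open points elsewhere. Dusp4 stands farthest to the right, at 0.72 in MSN500 and 0.81 in MSN-PEG500, and the points of Dusp6 lie within 0.08 of 0.

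Particles were also compared with each other. MSN500 against Stober500 sets porous against nonporous silica of the same nominal size, and 4 of 8 members were higher in MSN500, where 39.4% of all genes were called and 19.9% were called higher. These were Dusp4 (log2 difference 0.82 ± 0.12, adjusted p = 1.59e-04), Dusp2 (0.59 ± 0.15, adjusted p = 0.00702), Dusp16 (0.25 ± 0.06, adjusted p = 8.78e-04) and Spred1 (0.12 ± 0.05, adjusted p = 0.0375). The call of Spred1 was lost with upper quartile scaling (adjusted p = 0.104) and without any 1 of 4 libraries, namely Stober500 replicate 1 (adjusted p = 0.183) or 2 (0.147) and MSN500 replicate 2 (0.157) or 3 (0.0660). The calls of Dusp4, Dusp2 and Dusp16 held in all 16 settings, their log2 differences running from 0.75 to 0.93, 0.49 to 0.72 and 0.22 to 0.27.

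Stober50 against Stober500 sets the smaller against the larger nonporous particle. EdgeR called 0 of 8 members, with 2 (Dusp2 and Dusp4) at an unadjusted p under 0.05, DESeq2 called 0 and limma-voom 2, and 2.24% of all genes were called. The log2 difference was 0.52 for Dusp2 (95% interval 0.20 to 0.84, adjusted p = 0.109) and 0.36 for Dusp4 (95% interval 0.10 to 0.62, adjusted p = 0.188). MSN-PEG500 against MSN500 sets the pegylated against the bare mesoporous particle. There edgeR, DESeq2 and limma-voom each called 0 of 8, with 0 at an unadjusted p under 0.05, and 8.02% of all genes were called. The difference was 0.09 for Dusp4 (95% interval -0.17 to 0.34), 0.02 for Dusp16 (-0.10 to 0.13) and -0.21 for Dusp2 (-0.54 to 0.11), and the groups overlapped for all 3 genes.

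Within groups, 2 mesoporous libraries were low for most members, and a Stober50 library was so to a smaller extent. MSN500 replicate 1 was the lowest of its 3 for 8 of 8 members, beside 36.6% of all genes tested, and MSN-PEG500 replicate 3 was the lowest for 6 of 8, beside 40.9% of all genes. The same libraries were lowest for 15 of 21 and 14 of 21 genes of the ERK target list and for 9 of 9 and 8 of 9 genes of the cytokine list. Stober50 replicate 1 was the lowest of its group for 5 of 8 members, beside 31.2% of all genes, with a median deviation of -0.09 over the members. It was lowest for 8 of 21 ERK targets and 4 of 9 genes of the cytokine list. In the other direction, Stober50 replicate 3 was the highest of its group for 5 of 8 members and 14 of 21 ERK targets. MSN500 replicate 2 was the highest of its group for 5 of 8 and 13 of 21, and MSN-PEG500 replicate 2 for 4 of 8 and 14 of 21. The share of all genes for which a library was highest was not computed, so these counts are a description only. The median deviation of the 8 members from their group means was -0.25 (log2 CPM) in MSN500 replicate 1 and -0.15 in MSN-PEG500 replicate 3, beside a median of -0.0019 and -0.0025 over all genes. MSN500 replicate 1 had the lowest total of its group (19216971 counts against 22083760 and 23181412) and the highest mitochondrial share (1.65% against 1.39% and 1.33%). MSN-PEG500 replicate 3 had the middle total of its group (19460109 counts) and the lowest mitochondrial share (1.39% against 1.47% and 1.53%). The part of depth and RNA quality in the low values was not tested. Dusp16 and Spred1 were not low in MSN-PEG500 replicate 3 but highest there, and control and Stober500 held no library that was lowest for more than 4 of 8 members. Control replicate 2, lowest for 4 of 8, was also lowest for 11 of 21 ERK targets and 6 of 9 genes of the cytokine list, beside 32.6% of all genes. Its median deviation over the ERK targets was -0.11, beside -0.11 in MSN500 replicate 1 and -0.10 in MSN-PEG500 replicate 3. Over the cytokine list it was -0.08, beside -0.22 in each of those 2 libraries.

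With both libraries left out, a choice made after seeing that members were low in them, 5 of 8 members rose in MSN500 and 4 of 8 in MSN-PEG500 against control. Over all genes 5138 in place of 5489 were then called in MSN500, and 3992 in place of 4397 in MSN-PEG500. Dusp5 then joined, at a log2 change of 0.25 in MSN500 (adjusted p = 0.00369) and 0.30 in MSN-PEG500 (adjusted p = 0.00119), as did Spred1 in MSN500 (0.12, adjusted p = 0.0373) and Dusp2 in MSN-PEG500 (0.48, adjusted p = 4.27e-04). In MSN500 against Stober500 the members called then numbered 5 in place of 4, Dusp5 joining at 0.18 (adjusted p = 0.0385). All genes called there numbered 4657 in place of 5045. With 1 library left out at a time, Dusp5 did not pass, at 0.25 without MSN500 replicate 1 (adjusted p = 0.0867) and 0.30 without MSN-PEG500 replicate 3 (adjusted p = 0.0693). Spry2 in MSN500 moved from -0.06 to 0.09 without replicate 1 (adjusted p = 0.607), and in MSN-PEG500 from -0.06 to 0.02 without replicate 3 (adjusted p = 0.948). Because the libraries were picked by the members' own values, these calls are a description of how much the 2 libraries carry.

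**Figure D4:**
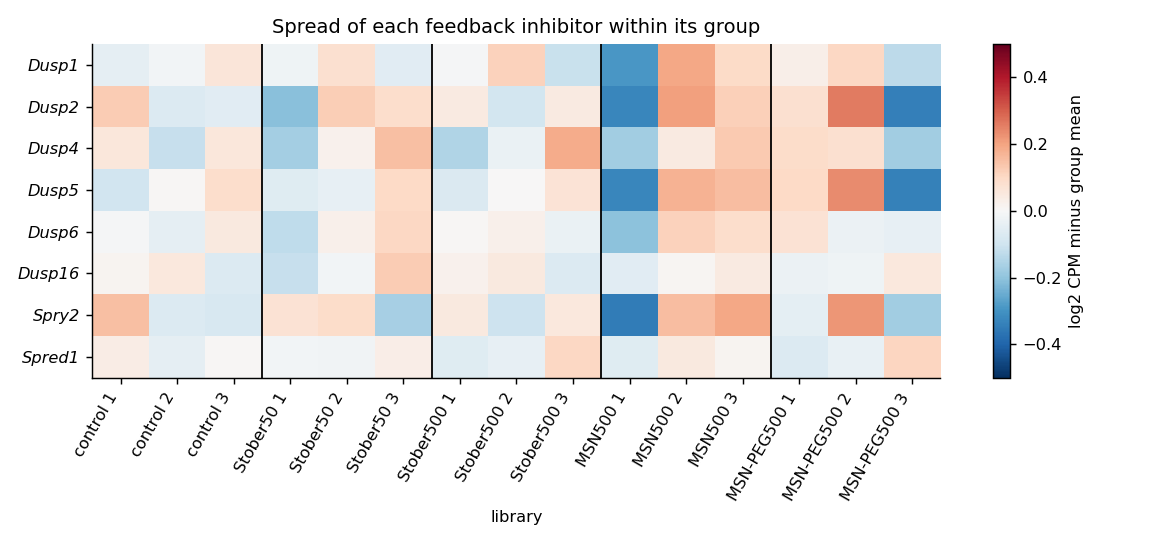
Deviation of each member's log2 CPM from its group mean in each library (colour, red above and blue below the mean), with black lines between groups. MSN500 replicate 1 is the lowest of its group for 8 of 8 members, and MSN-PEG500 replicate 3 for 6 of 8.

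The rest of the pathway was read from 10 lists of 151 genes, of which 124 were tested. In MSN500 against control 75 of the 124 were called, 44 of them higher, beside 42.9% of all genes called and 21.6% called higher, the rates against which each list count below is to be read. The lists were chosen with earlier results of these data known, so a count above those rates is a description and no test of a list. Of the 4 other MAP kinase phosphatases 2 rose and none fell (median log2 change 0.45), with Dusp7, an ERK phosphatase, going from 8.68 ± 1.24 to 13.4 ± 1.48 CPM (0.63 ± 0.10, adjusted p = 7.25e-06). Of 10 atypical DUSP phosphatases 4 rose and 1 fell, with Dusp3, which encodes VHR, going from 145 ± 3.29 to 221 ± 4.28 CPM (0.61 ± 0.04, adjusted p = 2.02e-13) and Dusp18 from 7.02 ± 0.534 to 10.1 ± 1.49 CPM (0.53 ± 0.10, adjusted p = 1.68e-04). Dusp13 (log2 change 2.53) and Dusp8 (1.23) were also called higher at levels under 5 CPM, and are named after their values were seen. Of Spry3, Spry4, Spred2 and Spred3, 2 were tested and neither passed in MSN500. Spred2, a relative of Spred1, was at 58.8 ± 3.14 CPM in control, 62.6 ± 4.05 CPM in MSN500 (0.09 ± 0.05, adjusted p = 0.129) and 66.9 ± 0.971 CPM in MSN-PEG500, where it rose (0.19 ± 0.05, adjusted p = 0.00335).

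Of 18 other brakes on Ras and ERK, 8 rose and 5 fell in MSN500 (median 0.05). Cblb, a ubiquitin ligase that restrains immune receptor signalling, went from 15.5 ± 1.67 to 28.2 ± 1.92 CPM (log2 change 0.87 ± 0.07, adjusted p = 2.33e-10). The adaptor gene Dok3 fell from 59.5 ± 4.17 to 48.3 ± 0.52 CPM (-0.30 ± 0.07, adjusted p = 9.09e-04). Among 9 receptors upstream of the kinases 2 rose and 5 fell (median -0.17). Tnfrsf1b, a receptor of tumour necrosis factor, was at 73.6 ± 4.03 CPM in control and rose to 128 ± 2.83 CPM (0.80 ± 0.05, adjusted p = 5.80e-13). Csf1r, the receptor of macrophage colony stimulating factor and one of the macrophage markers, fell (-0.47 ± 0.04, adjusted p = 1.31e-10), and so did Tlr4, the receptor of lipopolysaccharide (-0.53 ± 0.06, adjusted p = 5.12e-08).

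The kinases themselves moved both ways. Of 21 genes of the Ras, RAF and ERK cascade 7 rose and 5 fell in MSN500 (median 0.03), among them the kinase gene Rps6ka2 (from 3.66 ± 0.55 to 9.61 ± 0.338 CPM, log2 change 1.40 ± 0.12, adjusted p = 3.32e-10), the adaptor gene Gab2 (0.68 ± 0.05, adjusted p = 1.12e-11) and Hras (0.38 ± 0.05, adjusted p = 2.54e-06). Of 20 genes of the p38 and JNK cascade 3 rose and 7 fell (median -0.06). Mapkapk2, a kinase that p38 activates, rose (0.37 ± 0.04, adjusted p = 5.15e-08), while Mapkapk3, its relative (-0.65 ± 0.13, adjusted p = 2.29e-04), and Map3k5, the stress kinase ASK1 (-0.44 ± 0.06, adjusted p = 3.35e-07), fell.

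Of 21 targets of ERK signalling 12 rose and 3 fell in MSN500 (median 0.40), and 12 rose and 2 fell in MSN-PEG500 (median 0.40). Maff, a small Maf transcription factor, went up from 14.9 ± 1.58 CPM in control to 34.3 ± 4.97 CPM (log2 change 1.204 ± 0.13, adjusted p = 3.99e-06). In the other direction Fos, an immediate early gene and part of AP-1, fell from 438 ± 17.8 to 219 ± 15.02 CPM (-1.0003 ± 0.08, adjusted p = 5.67e-08), and the receptor gene Epha2 from 37.2 ± 1.85 to 15.2 ± 1.01 CPM (-1.28 ± 0.07, adjusted p = 6.12e-14). Of 9 genes on the list of cytokine genes downstream of p38 and JNK 5 rose and 2 fell in MSN500 (median 0.90). That list also holds genes that are not cytokine genes, such as Zfp36. Tnf, which encodes tumour necrosis factor, rose (from 64.0 ± 10.2 to 159 ± 10.7 CPM, 1.31 ± 0.19, adjusted p = 1.90e-04), as did the chemokine gene Cxcl2 (1.25 ± 0.23, adjusted p = 0.00122), and Il10, an anti-inflammatory cytokine gene, fell (-1.27 ± 0.17, adjusted p = 5.40e-07). Of 10 glucocorticoid and cAMP targets 1 rose and 3 fell (median -0.10). The kinase gene Sgk1 rose (1.40 ± 0.06, adjusted p = 4.07e-16), and the orphan receptor genes Nr4a1 (-0.94 ± 0.15, adjusted p = 3.14e-04) and Nr4a2 (-1.50 ± 0.08, adjusted p = 1.40e-14) fell.

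**Figure D5:**
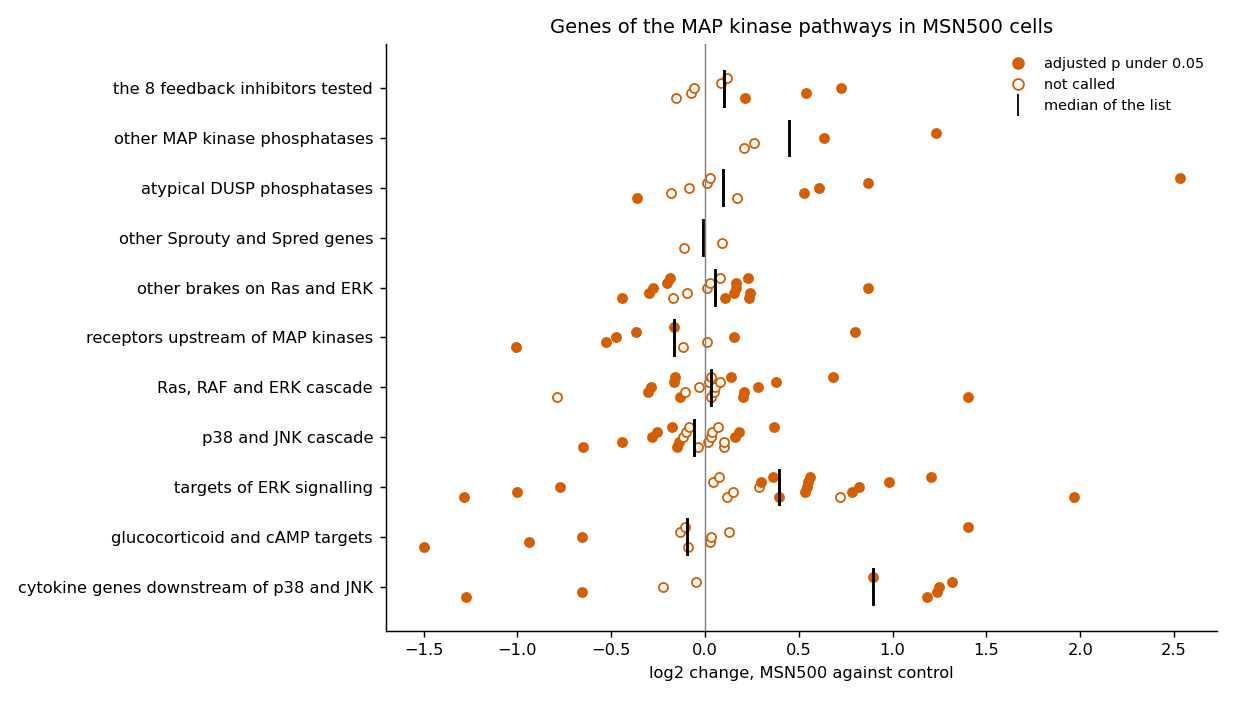
Log2 change in MSN500 against control of every tested gene of the 8 measured members and the 10 pathway lists, filled where the adjusted p was under 0.05, with each list's median as a black line. The median is 0.40 for the targets of ERK signalling and 0.90 for the cytokine list, and the members' median is 0.10.

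In MSN-PEG500 against control 62 of 124 list genes were called (39 higher), beside 34.4% of all genes, and in MSN500 against Stober500 67 (41 higher), beside 39.4%. In Stober50 against Stober500 5 were called (3 higher), beside 2.24% of all genes. In Stober50 against control 15 were called (10 higher), beside 7.57% of all genes, among them Dusp7 (0.33 ± 0.10, adjusted p = 0.0400), Gab2 (0.27 ± 0.05, adjusted p = 0.00104) and Tnfrsf1b (0.34 ± 0.05, adjusted p = 1.05e-04). In Stober500 against control edgeR called 0 of 124, with 13 at an unadjusted p under 0.05, and DESeq2 and limma-voom called 0. A gene to which DESeq2 gave no adjusted p, as with some members there, counts as not called. In MSN-PEG500 against MSN500 17 list genes differed, 10 of them higher in MSN-PEG500, beside 8.02% of all genes. Dusp7 was lower in the pegylated group (-0.31 ± 0.10, adjusted p = 0.0480), as were Hras (-0.31 ± 0.06, adjusted p = 0.00101) and Mapkapk2 (-0.19 ± 0.04, adjusted p = 0.00642), and Nr4a2 was higher (0.49 ± 0.09, adjusted p = 0.00110).

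For each member the 2 genes with the most similar profile over the 15 libraries were found by Pearson correlation of log2 CPM among 11403 genes, as a description. The points share the group differences and the library effects, so no test is given. Dusp4 was most like Tnfaip3 (r = 0.980), which encodes the NF-kB inhibitor A20, and Ppp1r15a (r = 0.9748), which encodes a stress-induced phosphatase subunit. Tnfaip3 was at 21.6 ± 1.61 CPM in control, 30.9 ± 5.95 CPM in Stober50, 55.7 ± 5.61 CPM in MSN500 and 52.8 ± 6.59 CPM in MSN-PEG500. Dusp2 was most like Nfkbia (r = 0.940), which encodes the NF-kB inhibitor IkB alpha, and Rnf19b (r = 0.883). Nfkbia was at 175 ± 8.02 CPM in control, 219 ± 24.9 CPM in Stober50 and 229.5 ± 28.6 CPM in MSN500. Dusp16 was most like Tbc1d24 (r = 0.927) and Tec (r = 0.925), a tyrosine kinase gene that went from 38.9 ± 1.76 CPM in control to 56.5 ± 2.35 CPM in MSN500.

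Of the other members, Dusp1 was most like Athl1 (r = 0.890) and Zfp36 (r = 0.849), which encodes the mRNA decay factor tristetraprolin. Dusp5 was most like Pim1 (r = 0.868) and Prdm1 (r = 0.818), Spred1 like Mob4 (r = 0.894) and Mak16 (r = 0.887), and Dusp6 like Gtf2h3 (r = 0.821) and 1600020E01Rik (r = 0.8004). The lowest values were those of Spry2, with Camkmt (r = 0.738) and Zfp180 (r = 0.735).

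The authors' deposited table also gives, for each gene, the exon with the largest difference in relative use, from a test in which replicates were not modelled, and lists it only from a log2 ratio of 1 upwards. In the authors' deposited table an exon near the 5′ end of Spred1 (chr2:117121377-117121760) was lower in MSN-PEG500, with a log2 ratio of -1.41 against MSN500, -1.52 against Stober50 and -1.08 against Stober500. In the same authors' deposited table the first exon of Dusp5 (chr19:53529109-53529696) was lower in MSN-PEG500, with -1.36 against MSN500, -1.29 against Stober50 and -1.14 against Stober500, and control stood above MSN-PEG500 by 1.02. The authors' exon score, higher for a smaller p, was 8.62 for that control ratio and 22.6 to 48.6 for the other Dusp5 ratios. No other member was listed in any comparison of the authors' deposited table. Over all genes, the authors' deposited table for MSN-PEG500 over MSN500 lists 533 genes, 434 of them lower in MSN-PEG500 and 72 of those at an exon that starts with the gene, while MSN500 over Stober500 lists 240. Whether 1 library carries these ratios was not tested, as the exon values are given per group only.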

How the data were processed

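The deposited values are whole-number counts per gene, made by the authors from aligned reads that touch a gene, per the file headers. The submitters' processing notes name GRCm38 and mm10 as builds and, as tools, Novoalign 2.08.03, limma 3.28.21 and DESeq2. Whether counting used strand is not stated in those notes, the labels or the headers. Libraries were made with TruSeq kits and sequenced as 50-cycle single reads, per the labels' protocols, from RNA of integrity number 8 to 10. The deposited FPKM values are scaled to exonic length and to reads of the library by the authors, without TMM factors. The deposited exon log2 ratios are the authors' own, and the deposited exon score is a transform of a chi-square p. Each count column was tied to its library by the name that the library's description quotes, which left 0 columns of other samples. Positions are from the authors' gene annotation, counted from 1, and promoter sequences are RefSeq's on GRCm38.p6.

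Tests used edgeR 4.0.16 in R 4.3.3 on the counts as deposited. Genes were kept by filterByExpr, and 1 robust quasi-likelihood fit with a mean for each of the 5 groups took in all 15 libraries with TMM factors (common biological coefficient of variation 0.0418). A gene was called at a Benjamini-Hochberg adjusted p under 0.05 over all genes tested, two-sided, in 7 comparisons and an F-test over the groups. CPM was taken on TMM effective sizes, with a prior count of 2 for logarithms. The procedure was tested on simulated data. Replicates differed beyond sampling noise (chi-square per degree of freedom 2.19 to 6.81 over genes with at least 20 counts in a pair). Nothing in the labels states separate cultures for the 3 libraries of a group, so the spread behind each p-value may be technical. No sequencing lane or day is given per library. DESeq2 1.42.0, limma-voom (limma 3.58.1), other scalings, no filter, 2-group fits, a replicate block, libraries left out and removal of a trend on exonic length were tried as alternatives, the last and the joint omission of 2 libraries after seeing the data.

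The members and lists were chosen with earlier results of these data known. Every member is named, and of each list at most 3 genes called in MSN500 against control with at least 5 CPM in one of the groups, the largest changes first (where none passed, the gene with the smallest p), plus the 2 genes most like each member among genes with a mean of at least 1 CPM. One gene that this rule names is not reported here.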

Additional observations from a re-analysis of the deposited data

How the results depend on the processing

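Calls of Dusp4 and Dusp16 in MSN500 and in MSN-PEG500 against control, and of Dusp2 in MSN500 against control, held in all 16 settings each. Over the 8 members and 7 comparisons, 871 of 896 alternative values kept their side of the threshold, 5 lost a call, 20 gained one and 0 called values changed sign, while 58 of 752 uncalled ones did. The number of members changed moved from 0 to 1 in Stober50 against control and from 0 to 2 in Stober50 against Stober500 with limma-voom, and from 0 to 2 and from 0 to 1 in a fit of the 2 groups alone. Over all genes 981 and 277 were called with limma-voom, and 1188 and 294 in the fits of 2 groups. With MSN500 replicate 1 and MSN-PEG500 replicate 3 left out together, 2 members changed in Stober50 against control, 5 in MSN500 against control, 4 in MSN-PEG500 against control and 1 in Stober50 against Stober500, and 5 differed among the 5 groups. All genes called in those comparisons numbered 1274, 5138, 3992 and 398, and 5630 differed among the 5 groups. Under that omission the pathway genes changed numbered 8 in place of 5 in Stober50 against Stober500 and 3 in place of 17 in MSN-PEG500 against MSN500, where 286 in place of 1027 genes were called in all (633 with a trend on exonic length removed). In Stober500 against control 1 gene was called in all, against 105 with DESeq2 and 49 under the joint omission. The cause was not tested.

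Leaving out 1 library at a time, the members changed ranged from 0 to 1 in Stober50 against control and from 0 to 1 in Stober50 against Stober500, the call in both being Dusp2 without Stober50 replicate 1. Without that library 533 and 218 of all genes were called. The pathway genes changed ranged from 8 to 14 in Stober50 against control (8 without Stober50 replicate 2), from 0 to 1 in Stober500 against control (1 without Stober500 replicate 3), from 3 to 6 in Stober50 against Stober500 (3 without Stober50 replicate 2 and 3 without Stober500 replicate 2) and from 9 to 16 in MSN-PEG500 against MSN500 (9 without MSN500 replicate 1, 10 without MSN-PEG500 replicate 3 and 11 without MSN500 replicate 3). With a trend on exonic length removed, Spred1 passed in MSN500 against control (log2 change 0.14, adjusted p = 0.00865).

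The replicate numbers showed no clear pairing of the samples, with correlations of same-numbered deviations from -0.164 to 0.0589 over the 7 comparisons. The labels do not say whether the numbers pair them. A replicate block changed no call of a member and left the counts at 3 in MSN500 and 2 in MSN-PEG500 against control, with 72 and 62 pathway genes changed. Over all genes more were called with the block in each of the 7 comparisons, such as 1151 in place of 969 in Stober50 against control. In MSN-PEG500 against MSN500 it was 1246 in place of 1027. A shared effect of the replicate numbers was not tested. In Stober50 against control every sample correlated best with its own number, a hint from the data and not the design. Against control the standard error of the log2 change was widest for Dusp2, at 0.15 to 0.16.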
